A study of Mus musculus with 12 samples.

Results

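The sinusoidal endothelial marker genes are 10 genes used to recognise the thin, fenestrated endothelium that lines the liver sinusoids (Stab2, Oit3, Dnase1l3, Clec4g, Ehd3, Kdr, Cdh5, Lyve1, Egfl7 and Aqp1). They were measured here in arrays of cultured mouse Kupffer cells, the resident liver macrophages. All probes annotated to these symbols were taken, which gave 15 of the 25697 probes on the array (10 of 16593 gene symbols). A probe entered the tests where 2 or more arrays had it at a detection p under 0.05, as 13678 probes did, and 13 of the 15 were among them, with at least 1 for each of the 10 genes. The remaining 2 probes, a second Oit3 probe (ILMN_2666330) and another Egfl7 probe (ILMN_2631417), were each detected on 1 of 12 arrays and are not tested.

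Liver sinusoidal endothelial cells form the wall between blood and hepatocytes and lack a continuous basement membrane. They clear macromolecules from blood through endocytic receptors such as stabilin 2, and they lie in direct contact with Kupffer cells, so both cell types are found in the non-parenchymal fraction of the liver. Several of the genes are not exclusive to endothelium: Dnase1l3 is also made by macrophages and dendritic cells, and Lyve1 by lymphatic endothelium and by some tissue macrophages.

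Kupffer cells of male C57BL/6 mice aged 8 weeks had been isolated by collagenase perfusion and a Percoll gradient, and were then plated, with no sort named in the labels. The 6 groups of 2 arrays each were M0 (controls without a named agent), LPS (lipopolysaccharide, 10 ng/ml, the M1 treatment), IL-4 (interleukin 4, 20 ng/ml, the M2 treatment), Veh (DMSO), SR3335 (which the submitters call an inverse agonist of the nuclear receptor RORα) and SR1078 (which they call a ROR agonist). Treatment lasted 24 h, while no time is given for M0. The labels print 10 mM for SR3335 and 5 mM for SR1078, a unit that nothing in the files allows to be checked. M0, LPS and IL-4 formed 1 array set, in which probes at background had a signal of 156 to 164, and Veh, SR3335 and SR1078 formed another, at 94.4 to 105. Groups were compared only within a set. Whether the 2 arrays of each group stand for different animals or cultures is not stated, so the p-values cover the spread between arrays, which may be technical.

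The arrays detected genes used as markers of Kupffer cells and of other liver cells. Which cells their RNA came from was not tested. Of 16 Kupffer cell genes, 13 were kept and all 13 were detected on both arrays of every group, whereas Cd5l was detected on no array and Csf1r and Cd68 were not analysed here. Of 25 pan-endothelial genes, 20 were kept, while Erg, Sox18 and S1pr1 were detected on no array. Of 12 other sinusoidal endothelial genes, 9 were kept, while Bmp2 and Wnt9b were detected on no array and Gpr182 on 1. Among other liver cells, 7 of 10 hepatocyte genes, 6 of 11 stellate cell and fibroblast genes and 6 of 9 T and NK cell genes were kept. Alb, the albumin gene of hepatocytes, and Lrat, a retinoid enzyme gene of stellate cells, were detected on no array. In RNA of a whole culture, fewer cells of a type and less RNA per cell cannot be told apart.

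The stretches in front of 5 of the genes are shown because each had a probe that passed below and an entry in the sequence table that reaches outside the annotated gene: Stab2, Clec4g, Ehd3 and Aqp1 fell after LPS, and Egfl7 rose after IL-4 and, by 1 probe, after SR1078. Oit3, Dnase1l3, Cdh5 and Lyve1 are named only. They are RefSeq sequences of the GRCm38.p6 build, read 5′ to 3′ on the strand of the gene, and they end at the annotated start or, for Stab2 and Clec4g, where the annotated gene span begins. Positions are Stab2 chr10:87008039-87008192 (minus strand), Clec4g chr8:3720696-3720901 (minus strand), Ehd3 chr17:73804591-73804840 (plus strand), Aqp1 chr6:55336049-55336298 (plus strand) and Egfl7 chr2:26580833-26581082 (plus strand). Capitals mark AGGAAG, a core that factors of the ETS family bind, and AGGTCA, which ROR binds, on either strand.
Stab2: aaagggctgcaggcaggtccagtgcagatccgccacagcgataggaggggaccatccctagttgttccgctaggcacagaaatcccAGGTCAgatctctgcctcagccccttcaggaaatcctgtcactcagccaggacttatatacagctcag
Clec4g: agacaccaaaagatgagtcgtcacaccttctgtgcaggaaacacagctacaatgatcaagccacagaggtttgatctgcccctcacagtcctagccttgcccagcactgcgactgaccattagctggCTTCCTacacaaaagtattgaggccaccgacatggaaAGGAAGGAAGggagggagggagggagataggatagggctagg
Ehd3: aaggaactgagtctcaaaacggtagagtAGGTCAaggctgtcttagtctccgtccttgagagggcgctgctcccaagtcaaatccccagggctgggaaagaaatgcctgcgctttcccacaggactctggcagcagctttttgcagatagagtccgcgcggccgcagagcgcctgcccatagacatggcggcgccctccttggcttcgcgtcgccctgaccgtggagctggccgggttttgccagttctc
Aqp1: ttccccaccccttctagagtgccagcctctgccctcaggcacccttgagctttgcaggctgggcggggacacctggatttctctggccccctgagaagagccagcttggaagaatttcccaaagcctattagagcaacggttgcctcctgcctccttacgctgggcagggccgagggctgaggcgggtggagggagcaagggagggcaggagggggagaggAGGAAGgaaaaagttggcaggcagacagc
Egfl7: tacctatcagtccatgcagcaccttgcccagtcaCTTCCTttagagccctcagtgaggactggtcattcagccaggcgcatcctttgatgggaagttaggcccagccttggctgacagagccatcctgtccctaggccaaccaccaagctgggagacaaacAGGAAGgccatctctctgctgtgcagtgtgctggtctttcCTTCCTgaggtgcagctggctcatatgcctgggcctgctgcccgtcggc
The 250 bases before each start in the RefSeq table were searched for 4 motifs on both strands, in 8 windows that belong to 6 of the 10 genes. AGGAAG was in 5 of 8 windows and in 29.5% of all 32851 windows of that length, and AGGTCA was in 3 of 8 and in 14.0% of all. AGATAA, which GATA factors bind, and the STAT6 palindrome, TTC and GAA with 4 bases of any kind between them, were in 0 of 8 windows and in 9.99% and 5.85% of all. In Clec4g, 2 of the AGGAAG matches overlap each other. A match is a run of letters and not a shown binding site.

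The first comparison asks what the M1 treatment changed. In LPS against M0, 6 of the 13 endothelial probes fell, those of Stab2, Oit3, Clec4g and Ehd3 and 2 of the 3 of Aqp1, by 1.94-fold to 2.72-fold, and 2 probes rose, those of Dnase1l3 and Cdh5. Values are log2 levels after background correction and normalization, the error after ± is the standard error (SE) of a difference of 2 groups of 2 arrays, and a probe passed at an adjusted p under 0.05 over all 13678 probes (limma). Of all probes tested, 28.4% passed, 14.9% lower and 13.4% higher, beside 8 of the 13, with 6 lower and 2 higher. These shares stand side by side without a test. The genes were chosen with earlier results of these data known, and 2 of the 8 probes belong to Aqp1. The median difference was -0.45 over the 13 probes and -0.01 over all probes. The groups did not overlap for 11 of 13 probes, beside 64.7% of all. Median centring moved the median of all probes to -0.11, and of the probes that passed it made 28.8% higher where quantile normalization made 47.3%. For IL-4 minus M0 it made 37.0% higher in place of 47.6%, and for LPS minus IL-4 36.6% in place of 49.2%.

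Among the endocytic genes, Stab2, which encodes the hyaluronan and scavenger receptor stabilin 2, had log2 levels of 10.74 and 10.69 in M0, 9.81 and 9.72 in LPS and 11.41 and 11.21 in IL-4. The 3 groups did not overlap, with LPS lowest and IL-4 highest. Stab2 was 1.94-fold lower in LPS than in M0 (log2 -0.96 ± 0.10, n = 2 arrays per group, limma adjusted p = 0.000224). Ehd3, which encodes a protein of endosomal recycling, stood at 7.07 and 7.04 in M0, 5.93 and 5.88 in LPS and 7.16 and 7.29 in IL-4. LPS alone stood apart by more than 1 log2 unit, and Ehd3 was 2.22-fold lower there than in M0 (-1.15 ± 0.11, limma adjusted p = 0.000123). Its LPS signals of 193 and 198 (detection p 0.0388 and 0.0426) were near background, so this fold rests on a group close to the floor. Quantile normalization within the set, without background correction, gave a smaller fall, from 8.08 and 8.07 in M0 to 7.66 and 7.65 in LPS. Clec4g, which encodes the C-type lectin LSECtin, stood at 9.19 and 9.29 in M0, 8.06 and 8.23 in LPS and 8.24 and 8.67 in IL-4. Both treated groups lay below both M0 arrays. Clec4g was 2.14-fold lower in LPS than in M0 (-1.10 ± 0.14, limma adjusted p = 0.000535).

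Oit3, a gene of a zona pellucida domain protein of the liver, stood at 8.33 and 8.09 in M0, 6.77 and 6.76 in LPS and 8.17 and 8.44 in IL-4. The LPS arrays were far below the other 4, which overlapped. With this background correction, the fall of 2.72-fold was the largest among the 13 probes (-1.44 ± 0.14, limma adjusted p = 0.00015). Its LPS signals were dim, at 232 and 242. Quantile normalization within the set, without background correction, gave Oit3 8.86 and 8.69 in M0 and 7.95 and 7.94 in LPS. It gave Stab2 10.91 and 10.87 in M0 and 10.06 and 9.98 in LPS, so there the Stab2 fall was larger. Aqp1, the water channel of capillary endothelium and red cells, was read by 3 probes. Its first probe (ILMN_2756486) stood at 7.80 and 7.75 in M0, 6.38 and 6.77 in LPS and 7.60 and 7.93 in IL-4, and was 2.29-fold lower in LPS than in M0 (-1.20 ± 0.14, limma adjusted p = 0.000413). The second (ILMN_2980661) was 2.33-fold lower (-1.22 ± 0.14, limma adjusted p = 0.000286), with LPS signals of 201 and 199 that were also near background. The third (ILMN_2980663), detected on both arrays of M0, IL-4 and SR1078 and on none of the other 6, differed by -0.45 ± 0.17 and did not pass (limma adjusted p = 0.0843). It was kept only through the groups in which it is high.

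The junction and growth factor genes behaved otherwise. Cdh5, which encodes VE-cadherin, the adhesion protein of endothelial junctions, stood at 9.33 and 9.27 in M0, 9.78 and 9.73 in LPS and 9.73 and 9.94 in IL-4. Both treated groups lay above M0 and overlapped each other. Cdh5 was 1.37-fold higher in LPS than in M0 (0.46 ± 0.09, limma adjusted p = 0.00588). Kdr, which encodes the vascular growth factor receptor VEGFR2, stood close to background, with 6.10 and 5.84 in M0, 5.84 and 5.87 in LPS and 5.69 and 6.09 in IL-4, and its groups overlapped. Its signals were 147 to 210 over all 12 arrays, and in LPS against M0 it did not pass (-0.11 ± 0.14, 95% interval -0.43 to 0.21, limma adjusted p = 0.603). Egfl7, which encodes a secreted protein of vessels, had -0.11 ± 0.11 to 0.07 ± 0.08 over its 2 kept probes in LPS and did not pass.

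Dnase1l3, which encodes a secreted enzyme that degrades DNA in chromatin, stood at 9.55 and 9.66 in M0, 9.97 and 10.08 in LPS and 11.01 and 10.66 in IL-4. The 3 groups were ordered M0, LPS and IL-4 without overlap. It was 1.34-fold higher in LPS than in M0 (0.42 ± 0.12, limma adjusted p = 0.0264). The 2 rises differ in how firm they are. The Dnase1l3 call was lost with median centring (0.26, adjusted p = 0.169), with the set fitted on its own (adjusted p = 0.111), in a fit of only the 2 groups (adjusted p = 0.0565) and without any 1 of the 4 arrays, where adjusted p ranged from 0.0564 without LPS replicate 1 to 0.126 without M0 replicate 1. Lyve1, a hyaluronan receptor gene, had levels of 6.75 and 6.36 in M0 but 6.56 and 7.38 in LPS, so its LPS arrays disagreed, and it did not pass (0.42 ± 0.23, limma adjusted p = 0.215). Without LPS replicate 1 it passed (0.83, adjusted p = 0.00908).

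**Figure D1:**
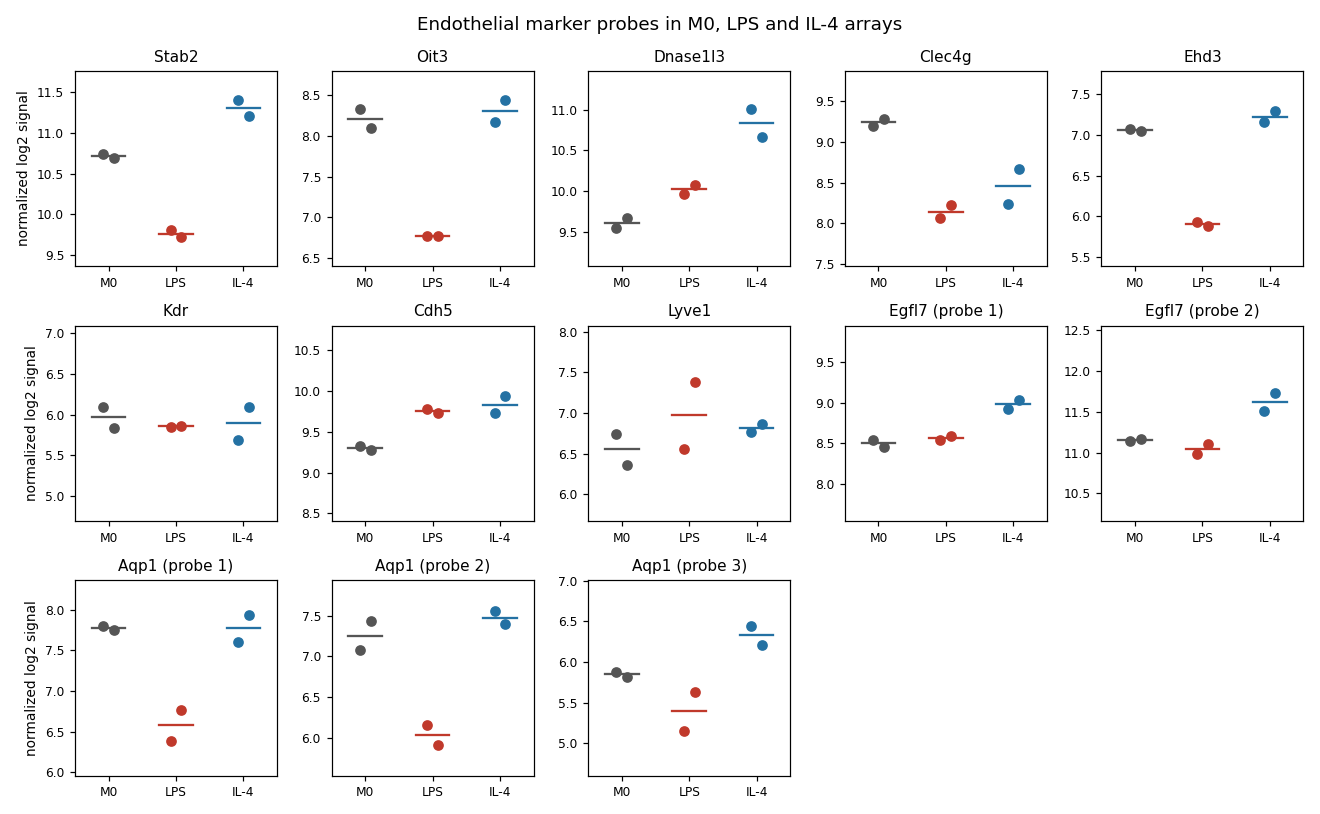
Normalized log2 signal (y axis) of the 13 endothelial marker probes in M0, LPS and IL-4 arrays, 1 panel per probe, with a point per array, a line at the mean of the 2 arrays and a y axis of its own in each panel. The LPS points lie below all others for Stab2, Oit3, Clec4g, Ehd3, the second Egfl7 probe and the 3 Aqp1 probes. The IL-4 points lie above all others for Stab2, Dnase1l3, Ehd3, both Egfl7 probes and the third Aqp1 probe.

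The M2 treatment gave another picture. In IL-4 against M0, 5 of the 13 probes rose, those of Stab2, Dnase1l3 and Cdh5 and both of Egfl7, and 1 fell, that of Clec4g. Over all probes, 17.3% passed, 8.25% higher and 9.08% lower. The median difference was 0.26 over the 13 probes and -0.01 over all, and the groups did not overlap for 9 of 13, beside 55.6% of all. Dnase1l3 had the largest difference, with both IL-4 arrays about 1 log2 unit above M0, and was 2.35-fold higher (1.23 ± 0.12, n = 2 arrays per group, limma adjusted p = 0.000278). Stab2 was 1.51-fold higher (0.59 ± 0.10, limma adjusted p = 0.00603) and Cdh5 was 1.44-fold higher (0.53 ± 0.09, limma adjusted p = 0.00563). Clec4g was 1.72-fold lower (-0.78 ± 0.14, limma adjusted p = 0.00631), the one gene of the 10 that passed in the same downward direction in both treatments.

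The first Egfl7 probe (ILMN_1215919) stood at 8.54 and 8.46 in M0, 8.54 and 8.59 in LPS and 8.93 and 9.03 in IL-4. Only the IL-4 arrays stood apart, by 0.48 ± 0.08 (limma adjusted p = 0.00549). The second (ILMN_3163288) stood at 11.14 and 11.16 in M0, 10.99 and 11.11 in LPS and 11.51 and 11.73 in IL-4. It rose in IL-4 by 0.47 ± 0.11 (limma adjusted p = 0.0232), so both probes of the gene passed in the same direction. Oit3 (0.09 ± 0.14), Ehd3 (0.17 ± 0.11), Kdr (-0.07 ± 0.14), Lyve1 (0.26 ± 0.23) and the 3 Aqp1 probes (-0.01 to 0.48) did not pass.

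The IL-4 calls depended on which arrays entered the fit. With the 6 arrays of the set normalized and fitted on their own, Stab2 and Dnase1l3 passed and the others did not (Clec4g adjusted p = 0.0579, Cdh5 adjusted p = 0.0588, Egfl7 adjusted p = 0.052 and 0.0928), and in a fit of the 2 groups alone Dnase1l3 passed and Stab2 did not (adjusted p = 0.106). The second Egfl7 probe was also lost with median centring (0.37, adjusted p = 0.0763), with array weights (adjusted p = 0.0875) and when an array was left out, with 0.35 and an adjusted p = 0.0709 without IL-4 replicate 2, and an adjusted p = 0.0953 and 0.0842 without the first and the second M0 array.

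LPS and IL-4 share the M0 arrays as controls, so they were also set against each other directly. In LPS, 9 of the 13 probes were lower than in IL-4 and 0 were higher, where 34.1% of all probes passed, 17.3% lower and 16.7% higher. At an unadjusted p under 0.05 the counts were also 9 and 0, and the groups did not overlap for 10 of 13, beside 62.2% of all. The 9 were the probes of Stab2, Oit3, Dnase1l3 and Ehd3, both of Egfl7 and all 3 of Aqp1. The third Aqp1 probe was kept only through groups in which it is high, and without it the count is 8 of 12. Stab2 was 2.92-fold lower in LPS (-1.55 ± 0.10, n = 2 arrays per group, limma adjusted p = 1e-05), Oit3 2.89-fold lower (-1.53 ± 0.14) and Ehd3 2.5-fold lower (-1.32 ± 0.11). Dnase1l3 was 1.76-fold lower (-0.81 ± 0.12), and the Egfl7 probes differed by -0.42 ± 0.08 and -0.57 ± 0.11. In a fit of the 2 groups alone, both Egfl7 calls (adjusted p = 0.0846 and 0.0625) and that of the third Aqp1 probe (adjusted p = 0.0524) were lost. The third Aqp1 probe, not detected in LPS, was at least 1.45-fold lower (limma adjusted p = 0.0034, a test that is not independent of the detection filter). This bound sets the mean of the brighter group against the dimmest signal detected on the LPS arrays, or the probe's own level where that is higher.

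The genes that did not pass were Clec4g (-0.31 ± 0.14, adjusted p = 0.116), Kdr (-0.04 ± 0.14), Cdh5 (-0.07 ± 0.09) and Lyve1 (0.16 ± 0.23). For Clec4g the 95% interval of the difference ran from -0.62 to 0.00. Clec4g passed with median centring (-0.48, adjusted p = 0.0199) and without IL-4 replicate 1 (-0.52, adjusted p = 0.0112), and Lyve1 passed without LPS replicate 1 (0.57, adjusted p = 0.033).

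**Figure D2:**
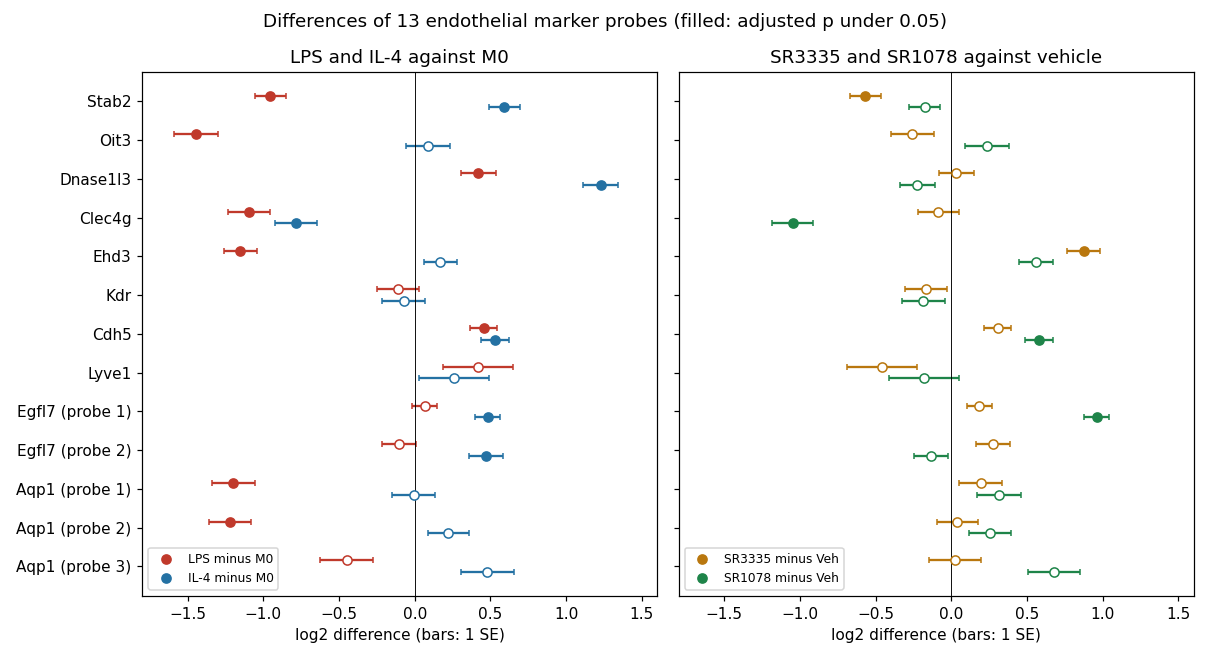
Log2 differences (x axis) of the 13 endothelial marker probes from the control of their array set, with bars of 1 SE and filled points where adjusted p was under 0.05. On the left, of the probes filled for both LPS and IL-4, the points lie on opposite sides of 0 for Stab2 and on the same side for Dnase1l3, Clec4g and Cdh5. On the right the filled points are Stab2 and Ehd3 for SR3335 and Clec4g, Cdh5 and the first Egfl7 probe for SR1078.

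Other endothelial genes were counted by their brightest kept probe. Of 20 pan-endothelial genes, 8 fell and 1 rose in LPS against M0 (median -0.50), 5 rose and none fell in IL-4 (median 0.22; 7 had an unadjusted p under 0.05), and 15 were lower in LPS than in IL-4 (median -0.65), beside medians of -0.01, -0.01 and 0.01 over all probes. Icam2, an adhesion molecule gene, fell in LPS (-0.92 ± 0.10) and rose in IL-4 (0.36 ± 0.10, limma adjusted p = 0.0462), and Mmrn2, an endothelial matrix protein gene, fell in LPS (-0.81 ± 0.11). Adgrl4, an adhesion receptor gene of endothelium, fell in LPS (-1.02 ± 0.11) and had -0.05 ± 0.11 in IL-4. Flt1, the gene of VEGFR1, which monocytes and macrophages also express, fell in LPS (-1.43 ± 0.10) and rose in IL-4 (2.63 ± 0.10). The 1 riser in LPS was Pecam1 (0.59 ± 0.11, limma adjusted p = 0.0039), which also rose in IL-4 (0.82 ± 0.11). Pecam1 was named after its value was seen.

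Of 9 other sinusoidal endothelial genes, 2 rose and 1 fell in LPS (median 0.06), and 2 rose and 2 fell in IL-4 (median -0.06). In LPS against IL-4, 3 were higher and 1 was lower (median 0.23), unlike the pan-endothelial genes. Over all probes, 13.4% were higher and 14.9% lower in LPS, and 8.25% and 9.08% in IL-4. For LPS against IL-4 these shares were 16.7% and 17.3%. Mrc1, the mannose receptor gene, which macrophages also express, fell in LPS (-1.93 ± 0.09) and rose in IL-4 (1.40 ± 0.09). Fcgr2b, an inhibitory Fc receptor gene of both cell types, rose in LPS (1.24 ± 0.11) and in IL-4 (0.71 ± 0.11). Stab1, the gene of stabilin 1, a receptor of sinusoidal endothelium and some macrophages, had 0.06 ± 0.10 in LPS and fell in IL-4 (-0.62 ± 0.10). Maf, a transcription factor gene of both cell types, rose in LPS (1.18 ± 0.20). These genes thus did not all follow Stab2.

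Summed signals of marker lists differed between groups as well. The summed normalized signal of the 10 endothelial marker genes, by their brightest probes, was 6600 to 6643 in M0, 5317 to 5619 in LPS and 9463 to 9553 in IL-4. That of the 13 Kupffer cell genes was 248274 to 256386 in M0, 182807 to 187162 in LPS and 247378 to 251330 in IL-4. In LPS, 8 of these 13 genes fell and 3 rose (9 and 1 with median centring), where 14.9% of all probes were lower and 13.4% higher. Vsig4, a complement receptor gene, had -1.92 ± 0.10, and the complement components C1qa and C1qc had -1.20 ± 0.08 and -1.41 ± 0.10. Spic, which encodes a factor that iron-recycling macrophages need, had 1.11 ± 0.10. In IL-4, 4 of the 13 fell and 3 rose (4 and 0 with median centring), beside 9.08% and 8.25% of all probes. There Spic fell (-1.24 ± 0.10), Vsig4 rose (0.41 ± 0.10), and C1qa and C1qc did not pass.

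Among lists of other cells is that of 6 stellate cell and fibroblast genes. Its summed signal was 740 to 760 in M0, 1288 to 1397 in LPS and 497 to 626 in IL-4. In LPS, 2 of these genes rose and 1 fell. Acta2, a smooth muscle actin gene, had 0.51 ± 0.09 and Dcn, the decorin gene of matrix, 1.34 ± 0.19, both past the threshold. Hgf, a growth factor gene not detected in LPS, was at least 1.51-fold lower there than in M0 (limma adjusted p = 0.00556). In IL-4 Acta2 alone passed, lower (-0.52 ± 0.09). The summed signal of 6 T and NK cell genes was 3768 to 4081 in M0, 2540 to 2561 in LPS and 2626 to 2859 in IL-4. That of 7 hepatocyte genes was 5029 to 5523, 3486 to 3950 and 5326 to 6493. This hepatocyte sum was mostly Trf, the transferrin gene, with mean log2 levels of 12.18 in M0, 11.60 in LPS and 12.41 in IL-4. Trf fell in LPS (-0.58 ± 0.11) and had 0.22 ± 0.11 in IL-4. The other 6 had mean levels of at most 7.94 in these groups and did not pass in either treatment. Among them, Fga, a fibrinogen gene, had 0.61 ± 0.27 in LPS and Ttr, the transthyretin gene, -0.51 ± 0.21 in IL-4. For 2 B cell genes the summed signal was 218 to 223, 141 to 153 and 217 to 226. For 2 neutrophil genes it was 73.7 to 88.0, 58.2 to 95.9 and 48.9 to 67.7, and for the 1 cholangiocyte gene 47.3 to 65.5, 24.7 to 47.2 and 25.1 to 26.3. Of 3 lymphatic endothelial genes Prox1 and Ccl21a were detected on no array, and Pdpn, the podoplanin gene, which macrophages can express, rose in LPS (2.90 ± 0.10). The part of these changes in the endothelial values was not tested.

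Genes whose level followed Stab2 most closely were sought among 12840 named probes outside the 10 genes, by the root mean square difference from Stab2 over 12 arrays after centring each array set. The 5 nearest were Retsat (0.11 log2 units), Lrmp (0.11), S100a6 (0.12), Cd22 (0.14) and Cyp4f18 (0.15). Of the endothelial probes, the nearest were the second Aqp1 probe (0.23) and Oit3 (0.25), which would rank 112 and 154 in that order. Clec4g lay farthest (0.61).

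**Figure D3:**
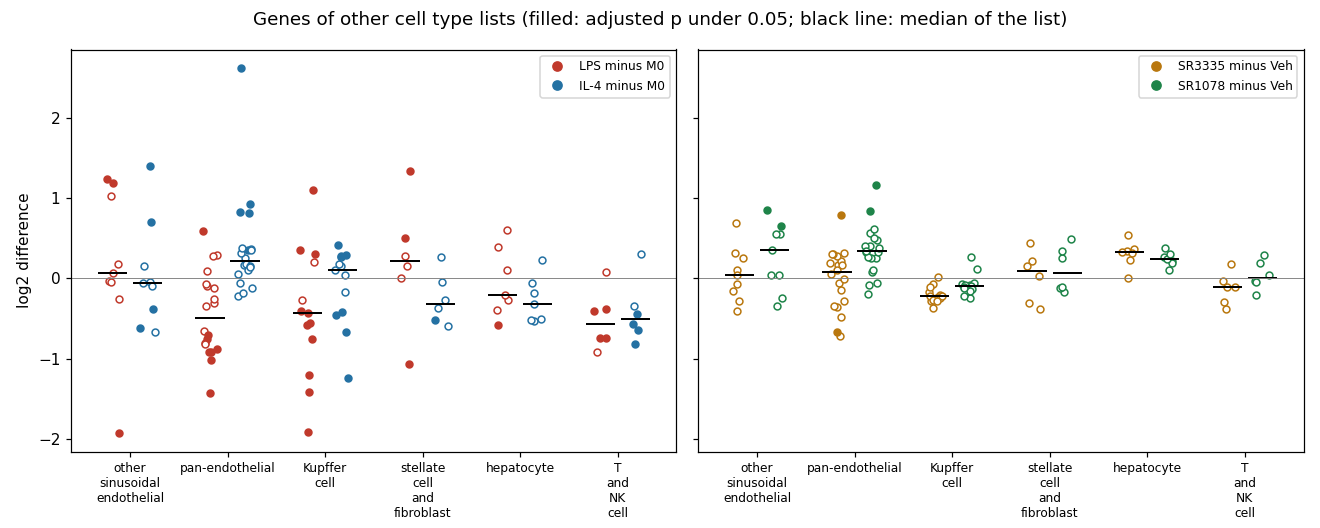
Log2 differences (y axis) of genes of 6 lists, 1 point per gene at its brightest kept probe, for LPS and IL-4 against M0 (left) and SR3335 and SR1078 against vehicle (right), with filled points past the adjusted p of 0.05 and a black line at the median of the list. The pan-endothelial median lies at -0.50 for LPS, 0.22 for IL-4 and 0.34 for SR1078.

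The second array set asked what ligands of ROR change. With SR3335 against Veh, 2 of the 13 endothelial probes passed, Stab2 lower and Ehd3 higher, where 3.44% of all probes passed, 1.56% higher and 1.88% lower. The groups did not overlap for 10 of 13, beside 53.7% of all. Stab2 stood at 10.65 and 10.65 in Veh, 10.13 and 10.03 in SR3335 and 10.36 and 10.58 in SR1078. The SR3335 arrays were the lowest, and Stab2 was 1.48-fold lower there than in Veh (-0.57 ± 0.10, n = 2 arrays per group, limma adjusted p = 0.021). Ehd3 stood at 7.23 and 7.54 in Veh, 8.33 and 8.19 in SR3335 and 7.96 and 7.93 in SR1078. Both compounds lay above both Veh arrays, and Ehd3 was 1.83-fold higher in SR3335 (0.87 ± 0.11, limma adjusted p = 0.00521).

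The Stab2 call was lost without any 1 of the 4 arrays (-0.62 to -0.52, adjusted p = 0.104 without SR3335 replicate 1 to 0.158 without Veh replicate 1), and that of Ehd3 without SR3335 replicate 1 (0.80, adjusted p = 0.0609). In a fit of the 2 groups alone both were lost (adjusted p = 0.0529 and 0.0585). Lyve1 stood at 11.29 and 11.35 in Veh, 10.83 and 10.89 in SR3335 and 11.20 and 11.08 in SR1078. It was lowest in SR3335, by -0.46 ± 0.23 with a 95% interval of -0.99 to 0.06, and did not pass (limma adjusted p = 0.366). It passed without background correction (-0.44, adjusted p = 0.0401), with the set on its own (-0.47, adjusted p = 0.0434) and on the authors' values (-0.45, adjusted p = 0.0178). Dnase1l3 had 13.08 and 13.15 in Veh and 13.15 on both SR3335 arrays, a difference of 0.03 ± 0.12 with an interval of -0.23 to 0.30. Cdh5, higher in SR3335 by 0.31 ± 0.09, did not pass (limma adjusted p = 0.118), but it passed under 4 alternatives (limma adjusted p = 0.0271 to 0.0444).

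With SR1078 against Veh, 3 of the 13 probes passed, where 0.87% of all probes did (0.658% higher and 0.212% lower). The groups did not overlap for 13 of 13, beside 52.7% of all. The first Egfl7 probe and Cdh5 rose and Clec4g fell. That Egfl7 probe stood at 10.63 and 10.53 in Veh, 10.77 and 10.76 in SR3335 and 11.49 and 11.59 in SR1078. The SR1078 arrays stood clear of the other 4, higher than Veh by 0.96 ± 0.08 (n = 2 arrays per group, limma adjusted p = 0.0046). The second Egfl7 probe stood at 10.06 and 10.24 in Veh, 10.52 and 10.33 in SR3335 and 10.05 and 9.98 in SR1078, so it differed by -0.13 ± 0.11 and the probes of this gene disagreed. The platform annotation gives them different transcript accessions of Egfl7.

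Cdh5 stood at 11.53 and 11.48 in Veh, 11.76 and 11.85 in SR3335 and 12.05 and 12.12 in SR1078. The groups did not overlap, and Cdh5 was 1.5-fold higher in SR1078 than in Veh (0.58 ± 0.09, limma adjusted p = 0.0262). Ehd3, higher by 0.56 ± 0.11, did not pass (limma adjusted p = 0.0611), but it passed under 6 alternatives (limma adjusted p = 0.0198 to 0.0497). The third Aqp1 probe, not detected in Veh, differed by 0.68 ± 0.17 and did not pass (limma adjusted p = 0.123). It passed on the authors' values and with array weights (limma adjusted p = 0.0375 and 0.0348). Oit3 (0.24 ± 0.14), Kdr (-0.19 ± 0.14), Lyve1 (-0.18 ± 0.23), Stab2 (-0.18 ± 0.10) and Dnase1l3 (-0.23 ± 0.12) did not pass either.

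Few calls in this comparison stood without 1 array. Over all 13678 probes, 119 passed, and 0 to 4 did when 1 of its 4 arrays was left out. The Cdh5 call was lost in each case (adjusted p = 0.162 to 0.204), as was that of Clec4g (adjusted p = 0.115 to 0.171), and that of Egfl7 was lost in 3 of 4 (adjusted p = 0.0652 to 0.0686). Directions did not change in any of these fits.

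For Clec4g, the deposited signals and the authors' processed table differed. The signals were 760 and 765 in Veh, 733 and 709 in SR3335 and 493 and 452 in SR1078. Normalized, they gave log2 levels of 9.55 and 9.41, 9.35 and 9.45, and 8.44 and 8.43. SR1078 was thus the low group, and Veh and SR3335 overlapped. Clec4g was 2.07-fold lower in SR1078 than in Veh (-1.05 ± 0.14, limma adjusted p = 0.0193) and had -0.08 ± 0.14 in SR3335 (limma adjusted p = 0.838, 95% interval -0.40 to 0.23).

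Quantile normalization of the deposited signals within the set gave the authors' processed log2 values to within 0.011 for all but 30 probes, which differed on arrays of this set alone and include Clec4g, 1 of the 13 probes here, and Mrc1. For Clec4g this normalization gave 9.68 and 9.56 in Veh, 9.50 and 9.60 in SR3335 and 8.78 and 8.77 in SR1078. The authors' processed table holds 9.99 and 9.91, 9.62 and 9.48, and 9.32 and 9.36. In it SR3335 stood 0.40 below Veh, a difference that passed when those values were fitted (adjusted p = 0.0224), where the signals gave -0.07. SR1078 stood 0.62 below Veh, where the signals gave -0.85. The origin of these differences is not given in the sources used here, and all Clec4g results above rest on the signals.

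**Figure D4:**
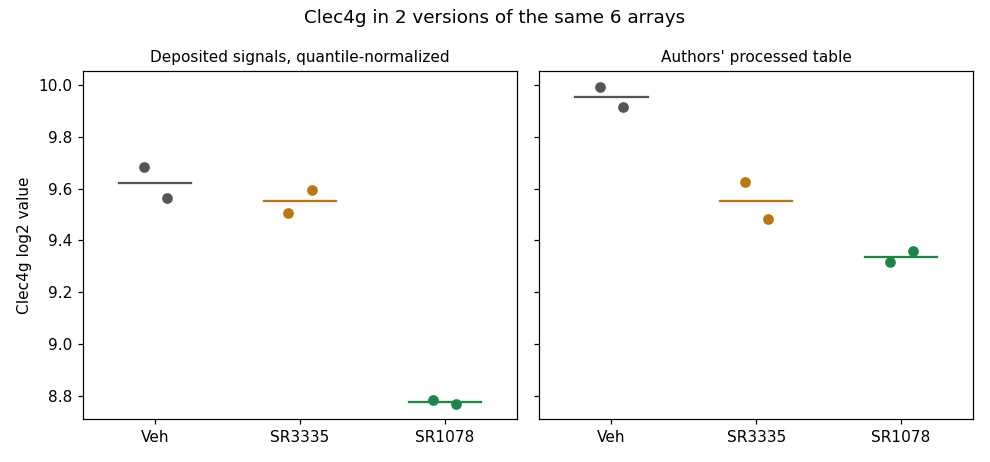
Clec4g log2 value (y axis) on the 6 arrays of Veh, SR3335 and SR1078, a point per array and a line at the group mean, from the deposited signals after quantile normalization within the set (left) and from the authors' processed table (right). On the left Veh and SR3335 overlap above SR1078, and on the right the 3 groups are apart with SR3335 between the others.

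The compounds were also set against each other, though their labelled concentrations differ (10 mM and 5 mM), so the values stand side by side and compare these treatments and not the compounds at 1 dose. With SR3335 minus SR1078, 2 of the 13 probes passed, where 3.75% of all did, 1.75% higher and 2% lower. The groups did not overlap for 12 of 13, beside 53.3% of all. Of the probes that passed, 46.8% were higher in SR3335, against 34.0% with median centring. The 2 were Clec4g, higher (0.96 ± 0.14, limma adjusted p = 0.00833) and the first Egfl7 probe, lower (-0.78 ± 0.08, limma adjusted p = 0.00314). The second Egfl7 probe differed the other way and did not pass (0.41 ± 0.11, limma adjusted p = 0.0904), but it passed without background correction, on the authors' values, with a variance trend and with array weights (adjusted p = 0.0211 to 0.0348). The Clec4g difference did not pass on the authors' values (0.22, adjusted p = 0.217) nor without any 1 of the 4 arrays (0.91 to 1.02, adjusted p = 0.0621 to 0.0752). For Stab2, lower by -0.39 ± 0.10 (limma adjusted p = 0.0771), the 95% interval ran from -0.63 to -0.16, and for Ehd3 (0.31 ± 0.11, limma adjusted p = 0.176) from 0.06 to 0.57. Neither passed, but Stab2 passed under 5 alternatives (limma adjusted p = 0.0184 to 0.0453).

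With SR3335, 1 of 20 other pan-endothelial genes rose and 1 fell (median 0.08; 7 had an unadjusted p under 0.05), and 0 of 9 other sinusoidal endothelial genes passed by limma (4 had an unadjusted p under 0.05). Esam, an endothelial adhesion gene, was the riser (0.79 ± 0.14, limma adjusted p = 0.0175), and Adgrl4, not detected in SR3335, was at least 1.49-fold lower (limma adjusted p = 0.0142). Esam was named after its value was seen, as the single riser. With SR1078, 2 of 20 pan-endothelial genes rose and none fell (median 0.34 beside -0.01 over all probes; 11 had an unadjusted p under 0.05), Flt1 (1.16 ± 0.10) and Esam (0.84 ± 0.14), and 2 of 9 other sinusoidal genes rose, Mrc1 (0.86 ± 0.09) and Stab1 (0.66 ± 0.10). Icam2 (0.32 ± 0.10) and Mmrn2 (0.57 ± 0.11) did not pass.

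The summed signal of the 10 endothelial marker genes was 18072 to 18615 in Veh, 18355 to 18430 in SR3335 and 17694 to 17752 in SR1078. Its largest part was Dnase1l3, which macrophages also make, with mean log2 levels of 13.12, 13.15 and 12.89. Egfl7 entered this sum by its second probe and not by the first, which rose with SR1078. The summed signal of the 20 pan-endothelial genes was 12084 to 12280, 14494 to 14601 and 17124 to 17405. The brightest gene of this sum was Esam, which rose with both compounds, with mean log2 levels of 11.46, 12.25 and 12.30. The median difference of the list was 0.08 with SR3335 and 0.34 with SR1078. Kupffer cell genes passed in 0 of 13 cases with either compound by limma (8 with SR3335 and 2 with SR1078 had an unadjusted p under 0.05), and their summed signal was 159767 to 163367 in Veh, 140746 to 143835 in SR3335 and 152480 to 156705 in SR1078. For 6 stellate cell and fibroblast genes it was 3706 to 3795, 4531 to 5383 and 4246 to 4600, for 7 hepatocyte genes 10777 to 11678, 11827 to 15418 and 12253 to 13931, for 6 T and NK cell genes 3679 to 3931, 3152 to 3238 and 3556 to 3658, and for 2 B cell genes 452 to 517, 490 to 491 and 818 to 830, with Cd79b, an antigen receptor gene, higher in SR1078 (0.62 ± 0.10, limma adjusted p = 0.0368). The part of these changes in the endothelial values was not tested.

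**Figure D5:**
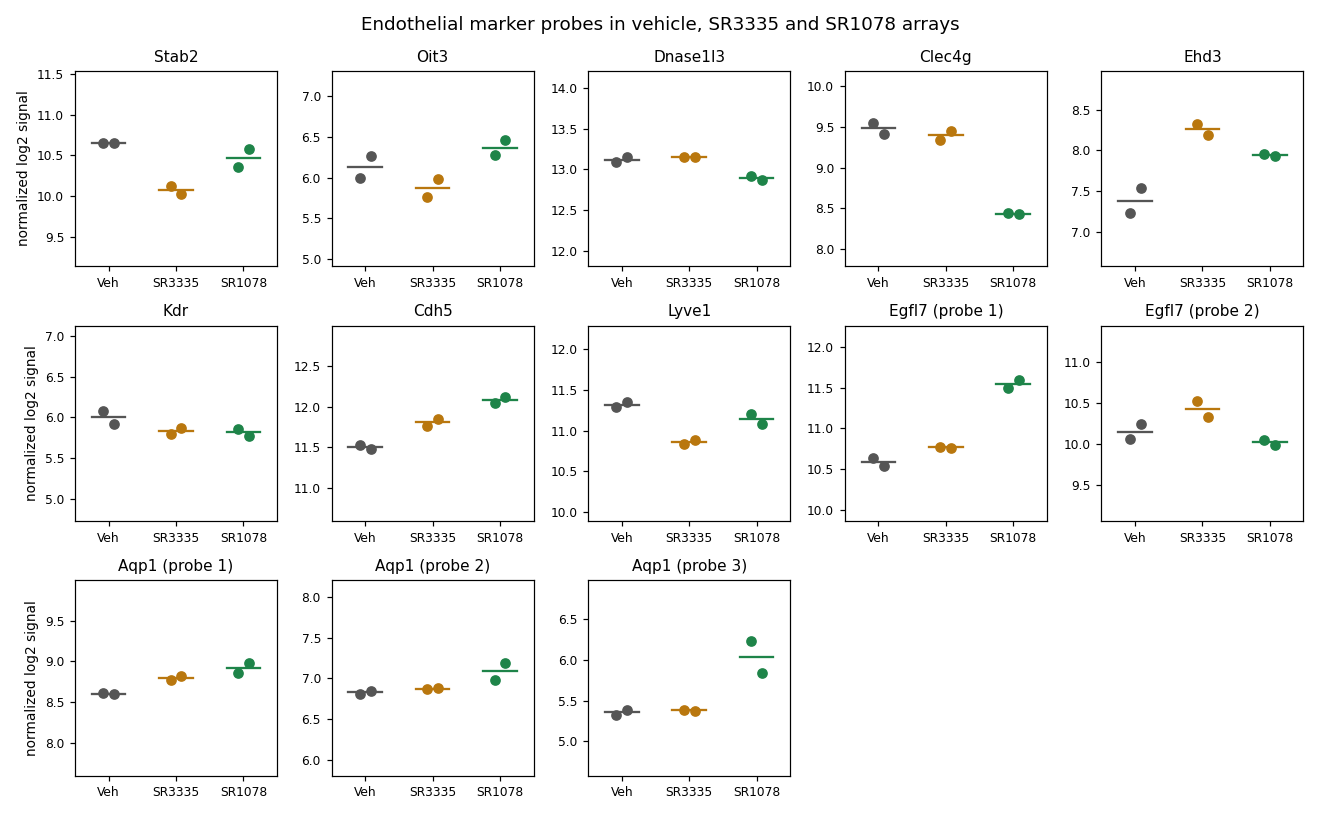
Normalized log2 signal (y axis) of the 13 endothelial marker probes in vehicle, SR3335 and SR1078 arrays, 1 panel per probe, with a point per array, a line at the mean of the 2 arrays and a y axis of its own in each panel. The SR1078 points stand apart downward for Clec4g and upward for the first Egfl7 probe, and the SR3335 points are the highest for Ehd3 and the lowest for Stab2.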

How the data were processed

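The authors deposited bead signals as intensity values of 25697 probes on 12 arrays, not normalized, exported from GenomeStudio 2011.1 per the submitters' processing notes, and, per the file headers, a detection p-value beside each signal. They also deposited processed log2 values, which the values themselves show to be quantile-normalized within 2 sets of 6 arrays, apart from 30 probes. Probe symbols came from GEO's platform annotation, updated by gene ID to RefSeq for 23962 probes, and 1719 were unnamed. Genome build and probe positions are not given in the sources used here.

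Signals were background-corrected by normexp with negative controls inferred from the detection p-values (offset 16), log2-transformed and quantile-normalized (12 arrays together) with limma 3.58.1 in R 4.3.3. The 13678 probes that 2 or more arrays detected (p under 0.05) were kept. All 12 arrays entered 1 fit with a mean for each group (6 residual degrees of freedom), with limma's moderated test and Benjamini-Hochberg adjustment over all kept probes. Each array detected 44.6% to 49.1% of probes, and the number of arrays limits precision. The fit was tested on simulated data. The members and lists were chosen with earlier results of these data known. In other lists, each gene counts by its brightest kept probe, and up to 4 genes with the smallest adjusted p in any comparison are named, with exceptions stated. Alternatives were another or no background correction, median centring, each set alone, the authors' values, other filters, 1 probe per gene, a variance trend, array weights, a block for the replicate number, only the compared groups, and leaving out each array. Figures were drawn in Python 3.11.15 (matplotlib 3.10.9).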

Additional observations from a re-analysis of the deposited data

How the results depend on the processing

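With 2 arrays per group, precision is limited, and dim probes such as Kdr and the third Aqp1 probe stand little above background. No call among the 13 endothelial probes turned its direction under any alternative tried; directions of other probes were not followed. The counts below are of endothelial probes that passed, then of all probes that passed, where they moved by more than 1.5 times, and the cause was not tested unless fewer samples or probes entered the fit. For LPS minus M0 (8 and 3881), all probes came to 2309 with each set on its own and 2579 with only the 2 groups. For IL-4 minus M0 (6 and 2371), the counts were 2 and 713 with each set on its own, 1 and 227 with only the 2 groups, and 1097 probes with array weights. For LPS minus IL-4 (9 and 4658), all probes came to 2965 with each set on its own, 3066 with array weights and 1888 with only the 2 groups. For SR3335 minus Veh (2 and 471), the counts were 4 and 808 without background correction, 5 and 1087 on the authors' values, and 0 and 190 with only the 2 groups, and all probes came to 713 with the strict filter, 820 with a variance trend and 1243 with array weights. For SR1078 minus Veh (3 and 119), they were 5 and 589 on the authors' values, 5 and 656 with array weights, and 0 and 0 with only the 2 groups, and all probes came to 391 without background correction, 240 with offset 50, 78 with the set on its own, 227 with the strict filter (detection p under 0.01 on at least 6 arrays) and 368 with a variance trend. For SR3335 minus SR1078 (2 and 513), they were 4 and 886 without background correction, 4 and 1110 on the authors' values, 4 and 844 with a variance trend, and 7 and 1250 with array weights, with 1 endothelial probe at 1 probe per gene, and 327 and 258 of all probes with no filter and with only the 2 groups.

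Leaving out 1 array gave 7 to 8 endothelial and 2619 to 2899 of all probes for LPS minus M0, 5 to 6 and 1218 to 3355 for IL-4 minus M0, 9 to 10 and 3448 to 4768 for LPS minus IL-4, 0 to 1 and 67 to 129 for SR3335 minus Veh, 0 to 1 and 0 to 4 for SR1078 minus Veh, and 1 and 56 to 129 for SR3335 minus SR1078. A lone array left in a group was assumed to vary like the other groups. Whether arrays with the same replicate number share an animal or culture is not stated. Their deviations correlated at -0.0131 to 0.0939 over 13678 probes, which with 2 arrays per group cannot show whether they were paired. With the replicate number as a block, the endothelial probes that passed stayed at 8, 6, 9, 2, 3 and 2 in the 6 comparisons, and all probes came to 3704, 2150, 4513, 383, 87 and 404.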

Other observations

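Levels in the 2 array sets are given side by side without a test, since set and group cannot be told apart. The deposited signal of Lyve1, the hyaluronan receptor gene, was 220 to 297 on the M0, LPS and IL-4 arrays and 1733 to 2685 on the Veh, SR3335 and SR1078 arrays. That of Dnase1l3 was 938 to 2464 and 7451 to 9856. Pdpn, the podoplanin gene, had a normalized signal of 602 to 617 in M0, 4374 to 4941 in LPS and 6548 to 6698 in Veh.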
